A study of Mus musculus with 2 samples.

Results

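Rian is a maternally expressed non-coding RNA gene of the Dlk1-Dio3 imprinted domain, annotated on the (+) DNA strand of mouse chr12:110842155-110899919 (mm9, 57.8 kb). It was followed together with AF357425, a snoRNA gene that lies in one of its introns, so 2 genes were described. Rian is 1 of the 1718 annotated genes that fell wholly inside the deposited stretches of signal. The mm9 annotation used here does not name AF357425, which is not among those 1718 and is represented by the bases around a polymorphic position in intron 6, reported for it from these libraries. Both were taken by name and position, with earlier results of these data known. Rian was divided by Rian-201, its annotated transcript with the most exons, into 21 exons that hold 3577 bases. The bases between those exons that no Rian transcript counts as exon, 49568 in number, were taken as intron.

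Box C/D snoRNAs are short nucleolar RNAs that guide 2′-O-methylation of other RNAs by base pairing. In mammals they are trimmed from the introns of host genes after splicing, and their C and D boxes bind the core proteins that protect them from the exonucleases that degrade the rest of the intron. Rian, known as MEG8 in human, is such a host. Its snoRNAs are of the orphan kind, with no known target in ribosomal RNA, and its introns also carry microRNA hairpins.

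The RNA came from mouse embryo fibroblasts (MEFs) of reciprocal crosses, taken from 13.5 dpc female embryos without head and internal organs and grown for a few passages. JXO MEFs have a JF1 mother and an OG2 father, and OXJ MEFs have an OG2 mother and a JF1 father. JF1 is an inbred strain of Mus musculus molossinus, and OG2 carries the GOF18ΔPE-EGFP transgene, in which a Pou5f1 promoter fragment that acts in germ cells and pluripotent cells drives EGFP, so both lines are JF1/OG2 hybrids. Each cross is represented by 1 library from 1 embryo's cell line. There is no replicate, so no test between crosses was possible. All intervals below are 95% intervals by exact formulas, on summed depth counted as read pairs of 200 bases. They cover counting error only, and may be too narrow even for that, since PCR copies are not independent molecules. Exons and snoRNAs shorter than a read were covered by more reads than this count credits, so their intervals are wider than a count of reads would give. Rian RNA is made from the maternal chromosome, which is JF1 in JXO MEFs and OG2 in OXJ MEFs, so the cross, the strain of the transcribed allele and the library cannot be told apart. In bulk RNA a change in the number of expressing cells and a change of RNA per cell cannot be told apart either.

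The libraries were depleted of ribosomal RNA and kept the strand. The level used throughout is the mean read depth per base after scaling each library to 50000000 aligned reads. At that scaling 1 read counted as 0.652 in JXO MEFs and 0.579 in OXJ MEFs, and the deposited tracks held 7.61% and 6.70% of the aligned reads, in 618 stretches that sum to 63.7 Mb. Of the markers fixed for MEFs, 3 of 18 lay in these stretches, and Col1a2, a chain of type I collagen, was at 1295 in JXO and 866 in OXJ MEFs. Dcn stood at 24.0 and 27.3, and Lum at 18.9 and 15.5. Of the other cell types, markers of blood, endothelium, epithelium and muscle fell outside the stretches and were not analysed here. Nes, a neural progenitor marker, was at 358 and 164, Sox2 at 1.28 and 1.26, the cartilage collagen Col2a1 at 499 and 425, Sox9 at 2.96 and 3.53, the germ cell gene Ddx4 at 0.98 and 4.14, and Pou5f1 at 0 in both libraries. The part of such cells in the results below was not tested.

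Inside Rian 13 snoRNAs are annotated, and a few of their sequences are given because the read profile over them is described below. They are mm9 reference sequence of the (+) strand. Capitals mark TGATGA within 20 bases of the start, the letters of a C box, and CTGA within 20 bases of the end, the letters of a D box. These were the snoRNA next to the AF357425 position in intron 6 (chr12:110871978-110872052), the copy inside exon 11 (chr12:110884339-110884412), AF357355 in intron 16 (chr12:110892837-110892908), the most similar pair of copies, in introns 14 and 17 (chr12:110889634-110889706 and chr12:110894555-110894626), and SNORD112 in intron 2 (chr12:110844667-110844743).
SNORD113 of intron 6: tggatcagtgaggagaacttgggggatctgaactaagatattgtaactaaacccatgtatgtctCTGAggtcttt
SNORD113 of exon 11: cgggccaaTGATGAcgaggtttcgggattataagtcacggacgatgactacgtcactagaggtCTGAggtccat
AF357355: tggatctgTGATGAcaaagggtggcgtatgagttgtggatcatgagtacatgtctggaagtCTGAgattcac
SNORD113 of intron 14: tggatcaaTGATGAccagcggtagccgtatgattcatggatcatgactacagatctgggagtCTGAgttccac
SNORD113 of intron 17: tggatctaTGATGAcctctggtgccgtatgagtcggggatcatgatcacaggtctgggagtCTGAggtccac
SNORD112: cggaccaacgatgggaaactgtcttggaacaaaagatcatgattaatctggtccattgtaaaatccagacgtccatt

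TGATGA was found at that place in 10 of the 13 snoRNAs, CTGA in 9, and both in 7, searched on the (+) strand only. Both occurred by the same rule in 0.241% of all 73-base windows of the Rian introns. A snoRNA without these exact letters may hold a variant box. The 12 copies other than SNORD112 were between 49.4% and 83.6% identical to each other over 66 pairs, with a median of 63.5%, and the pair of introns 14 and 17 was the closest.

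The spliced exons of Rian stood far above its introns in both MEF lines. The exons averaged 406 in JXO MEFs (398 to 414) and 320 in OXJ MEFs (313 to 326), while the introns averaged 12.4 in each (12.1 to 12.8 and 12.04 to 12.7). The exon level was thus 32.7 times the intron level in JXO (31.6 to 33.8) and 25.8 times in OXJ (24.99 to 26.7). The exons cover 6.19% of the gene and took 57.5% and 54.9% of its (+) strand signal. Of 21 exons, 19 were above both neighbouring introns in both libraries, against 95.8% of 5655 exons of other genes and Rian in the stretches, so this was the usual picture. The exceptions were exons 13 and 14 on either side of intron 13. Among 534 genes with introns and an exon level of at least 1, 83.9% had exons at least 10-fold above introns in both libraries. The exon-to-intron ratio of Rian lay at percentile 43.1 of these genes in JXO and 36.3 in OXJ, whereas its intron level lay at percentile 97.2 and 98.1 and its exon level at 93.4 and 94.4. The ratio was thus near the middle of these genes, while 14 of them in JXO and 9 in OXJ had a higher intron level.

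**Figure D1:**
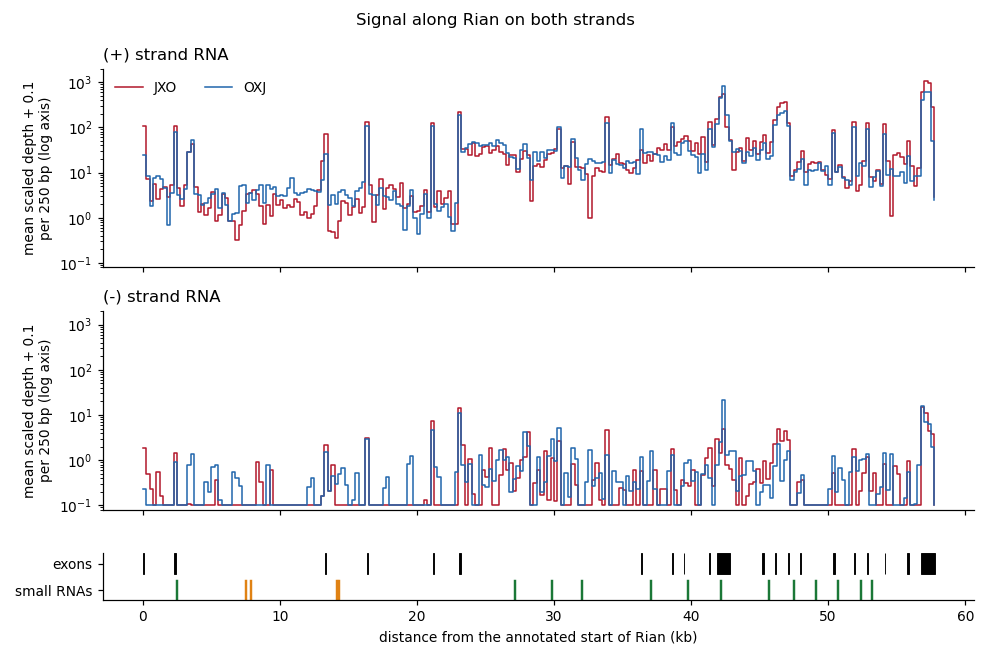
Mean scaled depth plus 0.1 in 250 bp bins (log axis) against the distance from the annotated start of Rian in kb, for RNA of the (+) strand (top) and of the (-) strand (middle) in JXO (red) and OXJ (blue) MEFs. The strip below marks the 21 exons in black, the 13 snoRNAs in green and the 4 microRNAs in orange, and the intronic signal of the (+) strand steps up just after 23 kb in both lines.

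The single exons ranged widely, in much the same order in both lines. The last exon, exon 21, was at 739 in JXO (719 to 758) and 431 in OXJ (417 to 446). Exon 18 followed with 570 (499 to 649) and 408 (352 to 471), and exon 6 with 497 (450 to 548) and 408 (368 to 452). In JXO the last exon stood clear of exon 18, while exons 18 and 6 had overlapping intervals. In OXJ exon 11 was highest at 439 (425 to 454), and the intervals of exons 21, 18 and 6 overlapped with its own. The lowest exon was exon 15, with 27.5 (16.0 to 44.1) and 18.8 (10.0 to 32.1). Exon 20 was next in JXO with 109 (85.4 to 138), indistinguishable there from exon 3 with 110 (90.6 to 131), and in OXJ these stood at 51.3 (36.2 to 70.5) and 39.2 (28.8 to 52.2), again with overlapping intervals. First exon 1 was at 219 (190 to 251) in JXO and 44.6 (32.8 to 59.3) in OXJ. The median exon had 246 and 267. Across the 21 exons the log2 levels of both lines correlated with a Pearson r of 0.84 and a Spearman rho of 0.76, given as a description of exons of 1 RNA.

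The introns fell into 3 runs along the gene. Introns 1 to 5 were low, with levels of 1.39 to 4.39 in JXO MEFs and of 1.39 to 5.19 in OXJ MEFs. Introns 6 to 10 were at 19.4 to 42.1 and 21.5 to 32.5, and introns 14 to 20 at 7.54 to 17.8 and 6.496 to 12.2. By the mean of both libraries introns 10, 9 and 8 were the highest, with 42.1, 39.5 and 37.9 in JXO and 32.5, 22.3 and 21.5 in OXJ, although in OXJ introns 6 and 7 stood above introns 9 and 8 with 24.5 and 23.7. Introns 5, 3 and 4 were the lowest, with 2.24, 1.39 and 3.19 in JXO and 1.39, 3.51 and 2.27 in OXJ. Introns 11, 12 and 13 lie almost wholly in long exons of another annotated transcript, Rian-203, and were left out of the intron average. As bases between Rian-201 exons, introns 11 and 12 had intron-like levels of 32.3 and 34.6 in JXO and 27.3 and 22.4 in OXJ. Intron 13, of 855 bases, was at 321 in JXO (307 to 335) and 203 in OXJ (193 to 214). Its intervals overlapped with those of exon 13 before it, at 288 (248 to 332) and 233 (199 to 270), and it was deeper than exon 14 after it, at 154 (125 to 186) and 126 (102 to 154). It alone held 10.9% and 8.33% of the (+) strand signal of the gene.

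**Figure D2:**
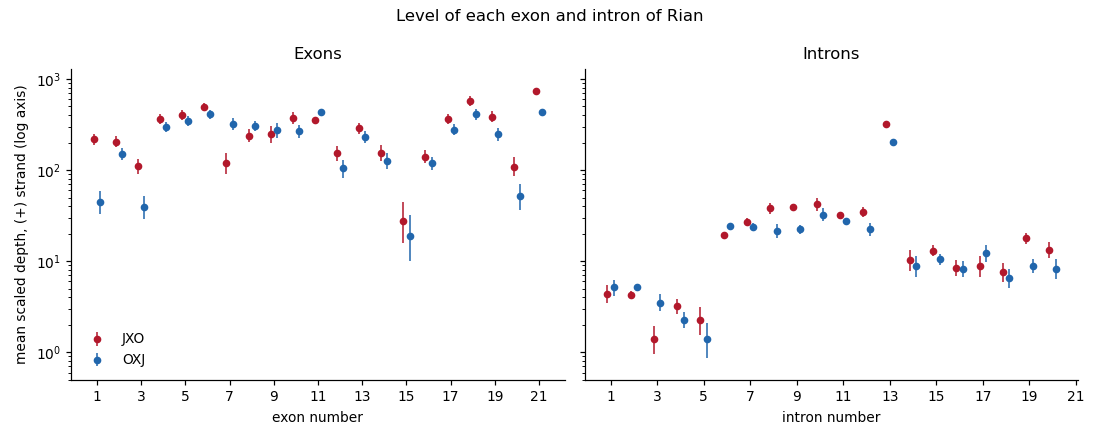
Mean scaled depth (log axis) of each exon of Rian-201 (left) and each intron (right) on the (+) strand in JXO (red) and OXJ (blue) MEFs, with exact 95% counting intervals as bars. Intron 13 stands at 321 and 203, among the exons, and introns 6 to 12 stand above introns 1 to 5.

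The step between the first and the second run was at exon 6. In the 4 kb upstream of exon 6, the bases outside exons averaged 2.21 in JXO MEFs (1.71 to 2.80) and 1.54 in OXJ MEFs (1.15 to 2.01). In the first 4 kb downstream of it they averaged 29.6 (27.7 to 31.6) and 38.5 (36.5 to 40.7), or 13.4 and 25.1 times as much. The signal then declined along the 13 kb intron 6, to 16.2 and 19.9 in the middle and 13.01 and 15.8 over its last 4 kb. The first 4 kb of intron 6 were 2.28 and 2.44 times as deep as the last 4 kb. The rise before and the decline after thus had the same direction in both lines.

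The exon edges were sharp. Over the first 20 bases inside against the 20 bases outside, the median fold over the 40 splice edges of Rian-201 was 12.5 in JXO and 12.7 in OXJ, and 35 of the 40 edges had at least 2-fold more inside than outside in both libraries, against 89.3% of 11318 edges in all genes tested. Of the steepest changes of read depth within 60 bases of an edge, 34 of 40 lay within 2 bases of the annotated splice site in both libraries. That share was not measured for other genes, so whether it is particular to Rian is not known. All 20 introns of Rian-201 begin with GT and end with AG in mm9. The edges without a 2-fold step in both libraries were the 3′ splice site of exon 3, the 5′ splice site of exon 11, both edges of intron 13 and the 5′ splice site of exon 15, after which an exon of Rian-203 continues.

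At exon 3 the signal began 37 bases upstream of the annotated start in both lines. Between the adjacent bases 110855383 and 110855384 the JXO count rose from 21 to 246 reads and the OXJ count from 12 to 76, and the 37 bases up to the exon averaged 167 and 45.3, against 5.87 and 4.46 over the 20 bases before them. The genome has AG just before this point. The mm9 sequence of chr12:110855364-110855440 is shown with those 37 bases in capitals, followed by the first 20 bases of the annotated exon, because both possible starts follow the letters AG.
Exon 3 start: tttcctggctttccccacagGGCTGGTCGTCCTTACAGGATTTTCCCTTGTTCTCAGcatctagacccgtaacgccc

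A further block of exon-like depth lay in intron 2 where no Rian transcript has an exon. Blocks of at least 30 bases with a depth of at least 60 in both libraries were sought along the gene, and 24 of the 25 found overlapped an annotated Rian exon. The other one, chr12:110845624-110845706, 83 bases long, was at 198 in JXO (165 to 236) and at 229 in OXJ MEFs (196 to 267). Exon 2 was at 205 (178 to 236) and 152 (129.6 to 177), so the block was as deep as it in JXO and deeper in OXJ. It was singled out after its values were seen, and it was also the only block outside exons at a depth of at least 100. At a depth of at least 30, however, 25 of 57 blocks lay outside exons, so its standing alone depended on the cutoff. Over 20 bases on either side of its edges the depth changed 50.1-fold and 71.8-fold in JXO and 63.3-fold and 67.3-fold in OXJ. Without it intron 2 averaged 2.75 in place of 4.25 in JXO and 3.47 in place of 5.19 in OXJ. It lies 1072 bases after exon 2 and 9714 bases before exon 3, AG precedes it and GT follows it. Its mm9 sequence is given with the block in capitals and 20 bases on either side.
Block in intron 2: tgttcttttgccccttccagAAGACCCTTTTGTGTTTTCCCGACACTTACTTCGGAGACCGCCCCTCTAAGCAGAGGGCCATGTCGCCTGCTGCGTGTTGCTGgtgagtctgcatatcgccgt

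**Figure D3:**
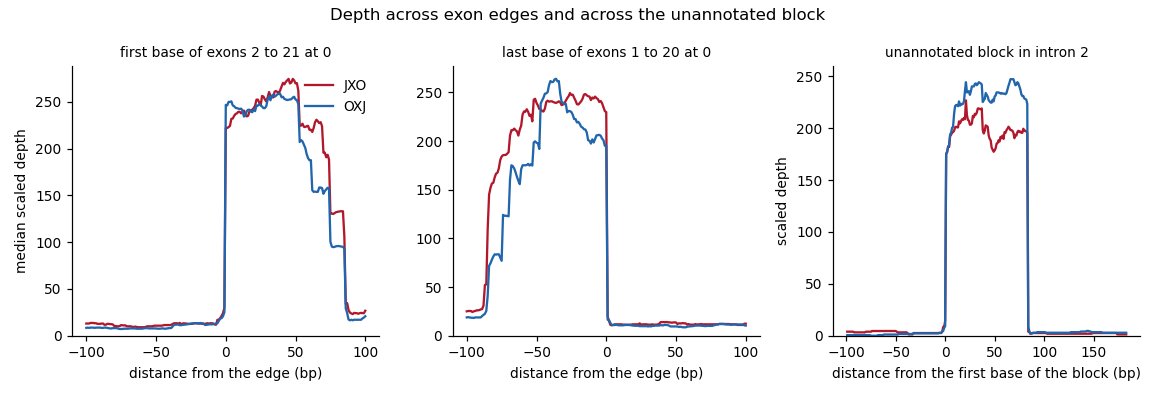
Median scaled depth over 20 exons at each distance in bp from the first (left) and the last base (middle) of an exon, and scaled depth at each base across the unannotated block in intron 2 (right), in JXO (red) and OXJ (blue) MEFs. The block has the vertical edges of the annotated exons, with 198 and 229 inside it.

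AF357425 was followed in intron 6, where its position is 143 bases downstream of an annotated SNORD113 and 218 bases upstream of an exon of the short transcript Rian-202. At that base 48 reads of the (+) strand were found in JXO and 50 in OXJ, and none of the (-) strand. The window of 500 bp on either side averaged 44.1 in JXO (39.6 to 49.1) and 48.0 in OXJ (43.5 to 52.9). This window takes in the Rian-202 exon, which was at 134 and 150, and without that exon it averaged 28.0 (24.1 to 32.4) and 29.8 (26.0 to 34.0). Intron 6 as a whole was at 19.4 and 24.5 and the other introns at 9.99 and 8.16, below that window. Over 2 kb on either side without exons the level was 15.7 (14.3 to 17.2) and 19.1 (17.6 to 20.6), below intron 6 as a whole, so the order depended on the width of the window. The SNORD113 neighbour was at 28.2 (16.2 to 45.7) and 33.9 (21.2 to 51.3), with intervals that take in the value of the narrower window. The (+) strand took 98.0% and 95.3% of the signal of the window. JXO over OXJ was -0.12 on the log2 scale (-0.33 to 0.09).

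The snoRNAs themselves did not stand out from their introns. Of the 12 in introns, the depth over the snoRNA divided by the depth of the 100 bp on either side had a median of 0.927 in JXO and 1.10 in OXJ. For 11 of the 12 in JXO and all 12 in OXJ the interval of the ratio took in 1. The exception was the SNORD113 of intron 7 (chr12:110879232-110879304) in JXO, at 6.09 against 23.4 in its flanks, a ratio of 0.261 (0.0584 to 0.779), whereas in OXJ it was at 27.9 against 29.3. The copy inside exon 11 was the deepest of all, at 872 in JXO and 709 in OXJ, and its flanks in the exon were at 739 and 701. The libraries were not made for RNAs as short as a mature snoRNA, whose amount was not measured here. Of the 17 introns used for the intron level, the 9 with a snoRNA had a median of 10.2 in JXO and 10.47 in OXJ, and the 8 without one had 8.82 and 6.73. With introns 11 to 13 included, the 10 with a snoRNA had 11.6 and 11.3 and the 10 without one 15.5 and 8.62, so the order turned in JXO.

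**Figure D4:**
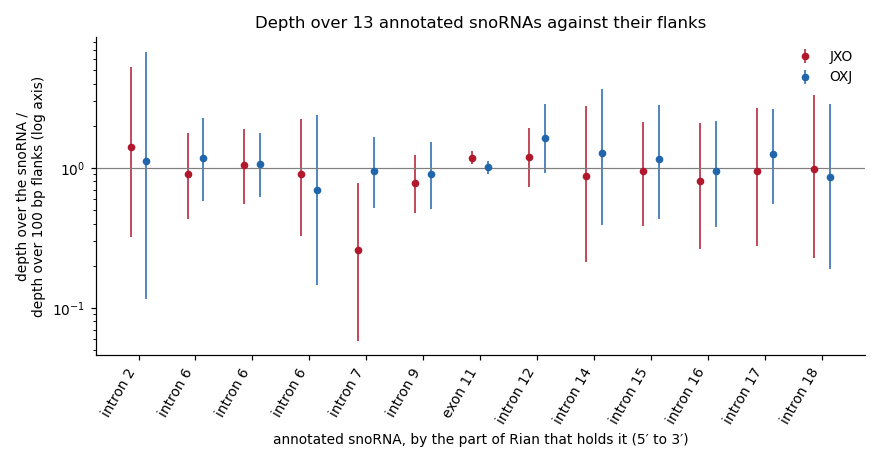
Ratio of the mean depth over each annotated snoRNA to that of the 100 bp on either side (log axis), in JXO (red) and OXJ (blue) MEFs with exact 95% intervals, ordered 5′ to 3′ and named by the intron or exon that holds it. Only the intron 7 copy in JXO, at 0.261, and the exon 11 copy in JXO, at 1.18, have intervals that leave out 1.

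The microRNA hairpins of introns 2 and 3 lay in the low 5′ run. Their mature sequences from RefSeq (GRCm38.p6) are shown with the seed, bases 2 to 8, in capitals, because these RNAs share the introns but no seed with each other.
miR-341-3p: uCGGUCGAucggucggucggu
miR-1188-5p: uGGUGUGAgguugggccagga
miR-370-3p: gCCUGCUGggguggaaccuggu
The level over Mir341 was 1.89 in JXO and 2.13 in OXJ, over Mir1188 1.62 and 3.53, and over Mir370 0.875 and 2.78. A count of 3 read pairs would give 4.07 and 3.62 over Mir341, 3.26 and 2.89 over Mir1188, and 4.95 and 4.40 over Mir370. Of these levels only that of Mir1188 in OXJ was above it, so they rest on very few reads. The fourth annotated hairpin, AC152063.1, had no read in JXO, where 3 read pairs would give 4.50, and 2.50 in OXJ. The depth over these hairpins could not be told apart from that of their flanks.

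The last exon was the deepest part of the RNA in JXO. It stood 2.61 times above the mean of the other exons there and 1.55 times above it in OXJ. Without exon 11, the other long exon, the ratio was 2.99 and 2.23. Over its first 700 bases the 100-base windows were between 472 and 1234 in JXO and between 264 and 814 in OXJ. From base 701 to 800 JXO had 418 and OXJ 82.5, and from base 801 to 900 they had 275 and 40.2, so the excess of JXO over OXJ, from 0.50 to 0.86 on the log2 scale in the windows before, was 2.34 and 2.77 there. The signal ended before the annotated end. The last base with at least 20 reads was 104 bases before it in JXO and 112 in OXJ, and the level from there to the annotated end was 1.49 and 1.43. A run of 26 bases in JXO and 46 in OXJ had no read at all, and the 1 kb after the gene was at 13.8 (11.3 to 16.7) and 6.73 (5.11 to 8.70). The mm9 sequence around this point, chr12:110899756-110899855, shows AATAAA, the letters of the common polyadenylation signal, in capitals, 21 bases before the last base with 20 reads in JXO. AATAAA was searched on both strands. The last exon holds it 2 times on the (+) strand and its reverse complement 3 times, and this window holds 1 of each. Of all 100-base windows of the gene, 12.4% hold AATAAA on the (+) strand.
End of Rian signal: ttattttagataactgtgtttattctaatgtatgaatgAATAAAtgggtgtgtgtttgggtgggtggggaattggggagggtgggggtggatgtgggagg

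Nearly all signal of Rian was on its own strand. The (+) strand took 98.6% in JXO (98.4 to 98.8) and 98.2% in OXJ (97.9 to 98.3), with 98.7% and 97.8% in the introns. The direction of the tracks was set beforehand, with those named forward taken as (-) strand RNA. With that choice 90.6% of 778 and 90.3% of 780 protein-coding genes not known as imprinted were higher on their own strand. The (-) strand level was 5.84 and 5.89 on exons against 0.170 and 0.274 in introns. As a share of the signal of both strands it was 1.42% and 1.81% on exons and 1.35% and 2.17% in introns. The higher (-) strand level on exons thus went with their higher (+) strand level. Of the exons, exon 6 had the highest share, with 6.32% in JXO (4.21 to 9.04) and 5.93% in OXJ (3.81 to 8.72). Exon 5 had 5.67% (3.12 to 9.35) and 4.14% (1.98 to 7.53), and exon 3, with few reads, had 3.12% (0.812 to 8.0) and 5.21% (0.917 to 15.5), so these intervals overlapped. The median exon had 1.32% and 1.17%. The share of (-) strand reads over all Rian exons, 1.42% and 1.81%, was below the median of the 534 genes, 2.98% and 3.67%.

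The crosses differed little in the total of Rian and more in its parts. The exons were at 406 in JXO and 320 in OXJ, 0.34 higher on the log2 scale (0.31 to 0.38), and the introns differed by 0.01 (-0.05 to 0.06). All exons of genes in the stretches had a median of 0.46 and all introns 0.47, so against that shift both values lay lower. When the median 10 kb bin was set equal in both libraries, the exons came to -0.13 and the introns to -0.47. Without the last exon the difference of the exons was 0.02, and without exon 11 it was 0.60. By the deposited scaling 17 of 21 exons were higher in JXO, and with the median bin set equal 9 were. The share of all exons in the stretches that were higher in JXO was not counted, but their median of 0.46 also lay towards JXO. Exons 1, 3 and 20 were at least 2-fold higher in JXO, at 2.29, 1.48 and 1.09, and exon 7 was at least 2-fold higher in OXJ, at -1.41. Over all 6214 exons with a level of at least 1 in the stretches, 14.1% were 2-fold higher in JXO and 5.1% in OXJ. The 3 of 21 and 1 of 21 of Rian were close to that background. Of the 17 introns, none was 2-fold higher in JXO, against 19.7% of 2236 introns, and 1, intron 3 at -1.28, was 2-fold higher in OXJ, against 6.71%.

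Several of these differences lay in short stretches of an exon. In exon 1, OXJ MEFs had 1.25 over the first 61 bases and 87.9 over the other 61, while JXO MEFs had 165 and 273. The first base with 20 reads was 95 bases upstream of the annotated start in JXO and base 60 of the exon in OXJ. In exon 11, which is 905 bases long, JXO fell to 136 over the second 100 bases where OXJ had 309, and to 95.2 and 3.67 over bases 501 to 600 and 601 to 700 where OXJ had 651 and 218. From base 301 to 400, which holds most of the SNORD113, they were at 980 and 903. Over the whole gene, 615 bases had no read in JXO and at least 20 in OXJ, and 41 bases had the reverse. All 54 such exonic bases of JXO were in exon 11, and all 18 of OXJ in exon 1. Such bases were not counted in other genes, so whether these counts are particular to Rian is not known. The reads of JXO come from the JF1 allele, and those of OXJ from the OG2 allele, of mixed CBA/CaJ and C57BL/6J origin. Both were aligned to the C57BL/6J-derived mm9 genome, and the part of strain differences in read alignment was not tested.

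**Figure D5:**
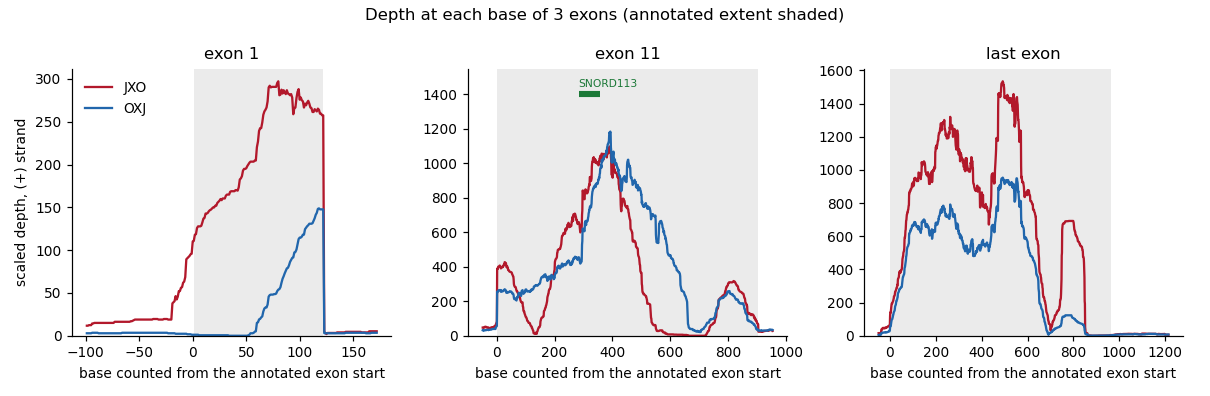
Scaled depth at each base of exon 1 (left), exon 11 (middle) and the last exon (right) on the (+) strand, counted from the annotated exon start, in JXO (red) and OXJ (blue) MEFs, with the annotated extent shaded and the SNORD113 of exon 11 as a green bar. Over the first 61 bases of exon 1 JXO is at 165 and OXJ at 1.25, and JXO has 3.67 over bases 601 to 700 of exon 11 where OXJ has 218.

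The spacing of the profile was examined last. The snoRNAs other than SNORD112 start 780 to 5010 bases apart, with a median of 2244, and the exons from exon 7 on start 585 to 3307 bases apart, with a median of 1144. The autocorrelation of the log2 depth in 50 bp bins, over lags of 500 to 10000 bp, was highest at the shortest lag of 500 bp, with 0.51 in JXO and 0.56 in OXJ, and declined to 0.33 and 0.31 at 5000 bp. Among lags with the highest value within 200 bp on either side, the highest was at 1800 bp in JXO (0.45) and at 950 bp in OXJ (0.47), and JXO had 0.46 at 950 bp. With depth in place of log2 depth it was at 4450 bp in both libraries (0.18 and 0.16), below the 0.24 and 0.17 at 500 bp.

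Of the 3 non-coding RNAs of the domain that were measured, Rian had the highest exon level and the widest gap between exons and introns. This holds for the exons of the transcript with the most exons, which cover 1896 bases in Meg3 and 1297 in Mirg. With the exons of all transcripts the ratio of Rian fell to 18.7 in JXO and 14.5 in OXJ. Meg3 and Mirg were not measured that way, so the ranking may depend on the transcript used. Meg3 exons were at 68.5 in JXO and 86.2 in OXJ, and those of Mirg, a microRNA host, at 38.4 and 32.6. Their introns were at 15.1 and 17.5 for Meg3 and at 8.49 and 9.51 for Mirg, close to the 12.4 of Rian. The exon-to-intron ratio was 4.54 (4.18 to 4.92) and 4.92 (4.59 to 5.27) for Meg3, and 4.52 (3.99 to 5.13) and 3.43 (3.03 to 3.88) for Mirg, and these intervals lay far below those of Rian. Rtl1as and AK050713 are not named in the annotation, so 3 of the 6 listed maternal RNAs were measured. Of 32 listed snoRNA host genes 4 lay in the stretches. Snhg12, also a non-coding host, had exons at 189 and 94.9 and a ratio of 5.55 and 4.45. The protein-coding hosts Eef1b2, a translation elongation factor, and Rps3, a ribosomal protein, had ratios of 57.7 and 53.0 and of 137 and 122. Snhg11 was at 0 in both libraries. None of the 5 box C/D snoRNP protein genes lay in the stretches, and they were not analysed here. The genes most like Rian by log2 exon level and log2 exon-to-intron ratio in both libraries, 4 values over 534 genes, were Rpl22, a ribosomal protein gene, at a Euclidean distance of 0.931, then Prkrir at 1.33, Rlim, a ubiquitin ligase, at 1.51, Nes at 1.53 and Ube3a at 1.76.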

How the data were processed

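RNA of 1 JXO and 1 OXJ MEF line was sequenced as 100-base pairs from rRNA-depleted, dUTP-stranded libraries. According to the paper's methods and the labels, the authors used CASAVA 1.9, aligned reads to mm9 with TopHat 1.2.0, keeping up to 10 loci per read, and piled them up with Samtools. The deposited values are log2(1 + depth) per base, scaled by the authors to 50000000 aligned reads, with 1 track per strand. Here they were turned back to depth. Each positive value was a whole multiple of the lowest one to within a relative 3.62e-14, so reads were recovered as whole numbers, 76712600 and 86369600 aligned reads being implied. Reads kept at several loci can enter repeats, so depth there is less certain. Chromosome 12 ended at the same base in the tracks and in the mm9 reference, to which the GENCODE M1 annotation belongs.

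Levels were mean depths, counted as pairs of 200 bases for exact Poisson and conditional binomial (Clopper-Pearson) 95% intervals, which cover counting error only. Log2 ratios added 0.1. A 2-fold difference, with no p-value, marked a call. The background came from genes lying wholly in covered stretches (gaps of 50 kb or less bridged). The rule for naming exons and introns took the first, the last, the 3 highest and the 3 lowest, with Meg3 and Mirg as comparators. Further exons and introns were named because of values seen. Members and lists were chosen with earlier results of these data known. Alternatives changed the averaging, a minimum of 2 reads, the exon set, the intron edges, the window and the scaling. Interval and autocorrelation code was tested on simulated data. Python 3.11.15, numpy 2.4.6, pandas 2.3.3, scipy 1.17.1, pysam 0.24.0, biopython 1.88 and matplotlib 3.10.9 were used.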

Additional observations from a re-analysis of the deposited data

Results flagged for a closer look

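Exon 13 moved in opposite directions against its deeper neighbour, intron 13, in the 2 libraries. It was at 0.897 times the level of that intron in JXO MEFs (0.769 to 1.04) and at 1.15 times in OXJ MEFs (0.973 to 1.34). The intervals overlap each other and take in 1, and with 1 library per cross the difference was not tested.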

How the results depend on the processing

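No paired analysis was possible because each cross has 1 library. With 1 library per cross no result has a replicate check, and leaving out a library was not possible. In the values that follow JXO stands before OXJ. Exons stayed above introns throughout. The exon-to-intron ratio was 33.9 and 24.5 by the mean of log2 values, 46.6 and 38.7 by medians over 100 bp bins, and 18.7 and 14.5 with the exons of all transcripts. With choices added after seeing the data it was 20.5 and 18.4 with introns as given between exons, and 34.1 and 22.6 without exon 11. The last exon stayed above the others, by 2.10 and 1.09 times by the mean of log2 values, 3.32 and 1.77 by bin medians, 4.46 and 2.96 with the exons of all transcripts, and 2.99 and 2.23 without exon 11.

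The direction between crosses depended on the scaling. On the log2 scale, the exons of Rian were at 0.16 with equal totals and reversed to -0.13 with the median 10 kb bin set equal, and were at 0.25 by the mean of log2 values, 0.11 by bin medians, 0.60 without exon 11 and 0.024 without the last exon. The introns were at -0.18 with equal totals, -0.47 with the median bin, -0.21 by the mean of log2 values, -0.16 by bin medians and 0.19 with introns as given between exons. AF357425 was at -0.59 with the median bin and 0.13 within 100 bp. Its level was 30.7 and 28.1 within 100 bp, 23.0 and 27.4 within 2 kb, 34.6 and 36.1 by the mean of log2 values, 28.0 and 29.8 without exons, and 15.7 and 19.1 within 2 kb without exons.

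The (+) share was 82.4% and 77.1% of covered bases, and in OXJ 98.4% with at least 2 reads at a base and 97.8% in introns. The lowest base of intronic snoRNAs over that of their flanks had a median of 1.42 in JXO and 1.38 in OXJ. The flanks are longer than the snoRNAs and so tend to hold a lower minimum. A value above 1 by this measure therefore does not show more depth over snoRNAs. The highest autocorrelation moved to 800 bp in the 5′ part of the gene in JXO, cut at its midpoint. Depth limits the introns 1 to 5 most, where a level of 2 is about 3 reads.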
